A study of Mus musculus with 6 samples.

Results

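Epicardial mesothelial nuclei of the mouse left ventricle are described here. The epicardium is the mesothelial sheet that covers the heart. Its cells carry surface glycoproteins typical of mesothelium, keep the transcription factor Wt1 in the adult heart, and are known as a source of growth factors and retinoic acid for the underlying muscle and, in development, of fibroblasts and mural cells. The members were selected on their UMIs (unique molecular identifiers, each standing for a captured RNA molecule). A nucleus was kept if it had 500 UMIs or more, 300 genes or more and no more than 5% mitochondrial UMIs. Among them, a nucleus was a member if it held at least 2 UMIs summed over Msln, Upk3b, Upk1b, Muc16 and Lrrn4, at most 1 UMI summed over the vascular genes Pecam1, Cdh5 and Rgs5, and less than 1% of its UMIs from the cardiomyocyte genes Ttn, Ryr2 and Myh6. This gave 258 members among 48438 nuclei kept, or 0.533%, out of 69249 barcodes.

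Male mice aged 12 weeks were compared in 3 groups of 2 libraries each. WT-CD were wild-type littermates on control diet. R403Q-CD were heterozygous for the R403Q mutation of the cardiac myosin heavy chain (genotype Myh6+/R404Q in the labels), a model of hypertrophic cardiomyopathy, on the same diet. R403Q-EMPA had the same genotype and received the control diet enriched with empagliflozin (EMPA), an inhibitor of the sodium-glucose cotransporter SGLT2, at 0.15 mg per g of diet or about 15 mg/kg, for 2 weeks. The mutated gene is best known from cardiomyocytes. Nothing in the labels says whether the 2 libraries of a group came from separate animals, so the p-values measure only the spread between these libraries.

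The libraries held 31787308 to 45397128 UMIs in all, with 6754 to 10170 nuclei kept in each. Members had a median of 4258.5 UMIs and 2099 genes, and their summed UMIs per library ran from 95974 in R403Q-EMPA replicate 2 to 342791 in WT-CD replicate 1. Their median depth was lowest in R403Q-EMPA, at 3649 and 2781 UMIs, and was 4210 and 4393 for the WT-CD libraries and 4464 and 5098 for the R403Q-CD libraries. No member barcode was a member in a second library, and 1 member barcode was also kept elsewhere, of 261 barcodes kept in more than 1 library.

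The values that chose the members are given first, as a description without a test. Marker UMIs per member had a median of 20, with quartiles of 10 and 30 and a maximum of 147. Muc16, a large membrane mucin, had 3486 and 3218 CPM (UMIs per 1000000 UMIs of the members of that library) in the WT-CD libraries, 2606 and 3224 in the R403Q-CD libraries, and 2580 and 2834 with EMPA. Upk3b, a uroplakin, had 1009 and 598 CPM in the WT-CD libraries, 963 and 993 in the R403Q-CD libraries, and 964 and 1250.3 with EMPA. The other uroplakin, Upk1b, ran from 221 to 531 CPM over the 6 libraries, the glycoprotein mesothelin (Msln) from 261 to 551, and the leucine-rich repeat protein Lrrn4 from 135 to 386. At least 4 of the 5 markers were seen in 146 members, and 17 members held only 1 of them. All markers were present in every library.

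Each marker was also read in nuclei chosen with the other 4 alone, so that it had no part in the choice. Muc16 was found in 95.2% of 229 such nuclei, Upk3b in 82.2% of 247, Msln in 61.6% of 255, Upk1b in 60.5% of 253 and Lrrn4 in 54.3% of 258. Among nuclei within the same vascular and cardiomyocyte limits but without a UMI of the other 4 markers, the shares were 0.349%, 0.450%, 0.147%, 0.0356% and 0.0914%. The 5 genes were thus found in the same nuclei.

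The limit of 2 marker UMIs was examined with genes that had no part in it. Any of Wt1, Bnc1 and Gpm6a was found in 4.10% of the 195 nuclei with 1 marker UMI, just outside the limit, and in 3.93% of the 19683 nuclei with none. The share was 47.1% of the 17 nuclei with 2 marker UMIs, just inside, 54.5% of 11 nuclei with 3 or 4, 80.6% of 31 with 5 to 9, and 99.5% of 199 with 10 or more. Members with exactly 2 marker UMIs were 17 of the 258.

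**Figure D1:**
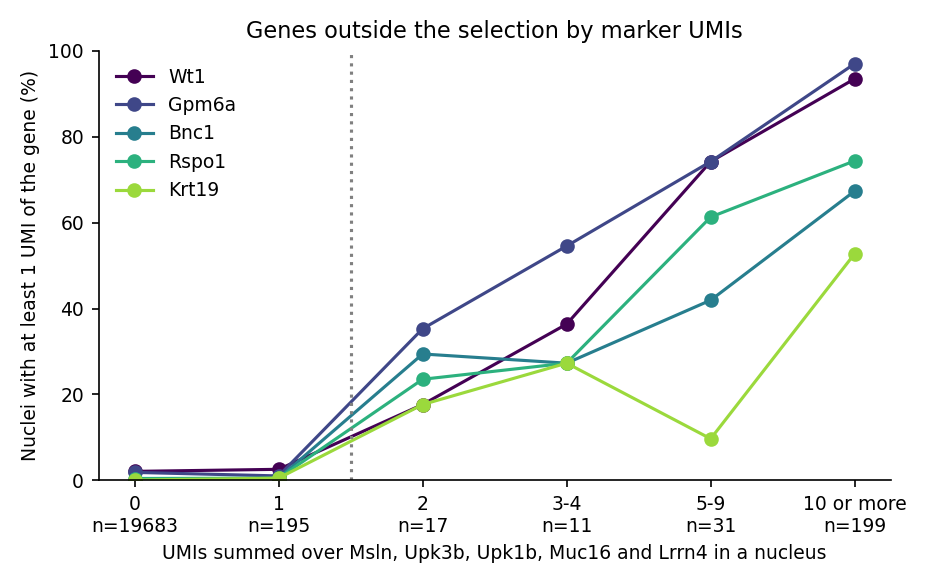
Share of nuclei with at least 1 UMI of 5 genes that the selection did not use (y axis, percent) by UMIs summed over the 5 marker genes (x axis, with the number of nuclei), all libraries pooled. The dotted line is the selection limit. Wt1 was seen in 2.56% of nuclei with 1 marker UMI and in 93.5% of nuclei with 10 or more.

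Genes outside the selection were compared with 3 other classes set by UMI rules, namely 13677 fibroblast, 9379 endothelial and 5516 cardiomyocyte nuclei. To remove differences in depth, each nucleus was thinned to 1000 UMIs, which left out 1 member, 52 fibroblast, 61 endothelial and 29 cardiomyocyte nuclei. Gpm6a, a neuronal-type membrane glycoprotein, was seen in 69.3% of thinned members (88.4% unthinned) and in 0.382% of fibroblast, 4.20% of endothelial and 0.0547% of cardiomyocyte nuclei. Wt1, the zinc finger factor of the epicardium, was seen in 54.9% of members (83.7% unthinned), 0.198% of fibroblast and 0% of cardiomyocyte nuclei. Endothelial nuclei held Wt1 in 9.35% (21.9% unthinned), so Wt1 was not limited to the members.

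Bnc1, a zinc finger factor of mesothelium, was seen in 17.9% of thinned members and 0.00734% of fibroblast nuclei. For Rspo1, a secreted activator of Wnt signalling, the shares were 29.2% and 0.169%, and for the keratin Krt19 they were 13.6% and 0.0294%. Several epicardial genes were shared with fibroblasts. Bnc2 was seen in 62.3% of members and 24.5% of fibroblast nuclei, complement C3 in 52.9% and 17.2%, the retinoic acid synthase Aldh1a2 in 25.7% and 5.14%, and the T-box factor Tbx18, without thinning, in 36.4% and 8.72%. Some genes often named for the epicardium were sparse here. Without thinning, Tcf21 was found in 6.98%, Krt8 in 9.69%, Krt18 in 23.6% and the secreted protein dermokine (Dmkn) in 3.88% of members. Tcf21 was more common in fibroblast nuclei, at 11.8%.

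**Figure D2:**
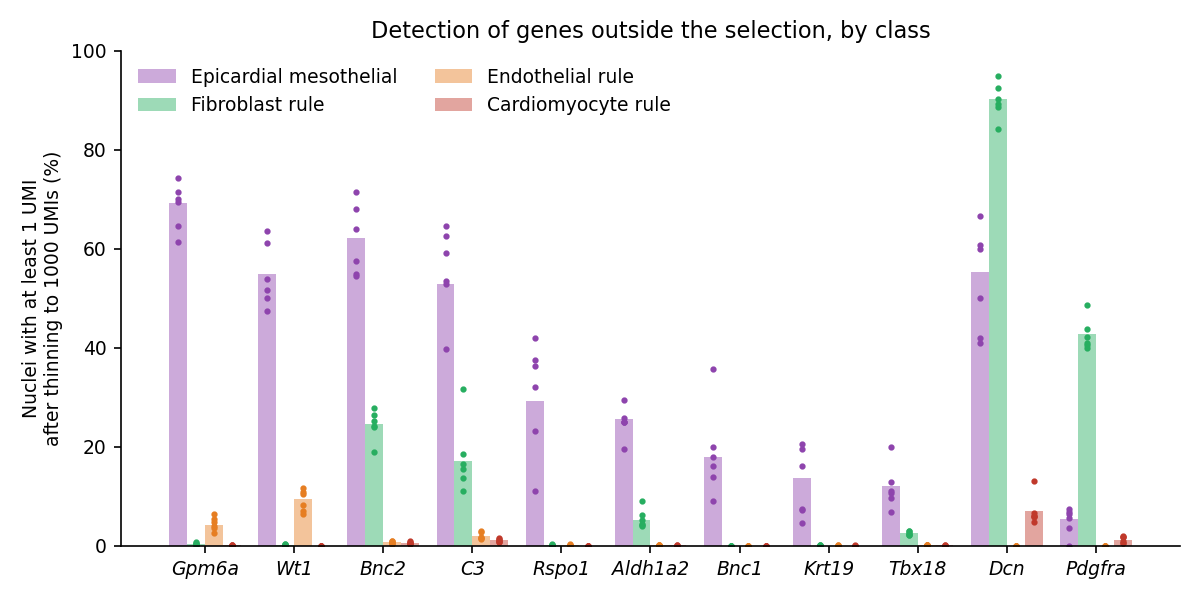
Share of nuclei with at least 1 UMI after thinning to 1000 UMIs (y axis, percent) for 11 genes that did not choose the members, in epicardial mesothelial nuclei and in 3 classes set by UMI rules. Bars pool the 6 libraries and points are single libraries. Gpm6a and Wt1 stood at 69.3% and 54.9% in members. Dcn and Pdgfra are genes that chose the fibroblast and, by their absence, the endothelial class.

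The genes with the highest ratio of CPM in members to CPM in all other nuclei kept were listed among the 3640 genes with at least 5 member UMIs in every library. The 20 leading genes had median ratios over the libraries from 1317 down to 441, and they included all 5 genes of the rule. Outside the rule stood the keratin Krt19 (1107), Bnc1 (1083), the Hippo pathway scaffold Wwc1 (974), the chloride channel Cftr (945), the immune checkpoint ligand Vtcn1 (939), Zdbf2 (856), the chloride-bicarbonate exchanger Slc26a3 (753), the sulfotransferase Chst4 (712), the endocytic receptor Lrp2 (551), Tm4sf5 (544), Nkain4 (532), the polarity protein Crb2 (451) and the cytochrome Cyp2s1 (441). The unnamed gene models Gm29266 (1180) and Gm53042 (702) were also among them. The order is loose, since levels in other nuclei were near 0 and the ratios varied by library, as from 315 to 1501 for Krt19, 696 to 4637 for Bnc1 and 239 to 4779 for Crb2. Cftr ran from 321 to 511 CPM and Slc26a3 from 302 to 604 CPM in the members of the 6 libraries, against at most 0.511 and 1.01 CPM in other nuclei.

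Markers of other cell types were read in the members as whole lists. The 7 fibroblast markers summed to 1492 to 2427 CPM in the WT-CD libraries, 1904 to 2181 in the R403Q-CD libraries and 2179 to 3042 with EMPA, against 5477 to 10886 in fibroblast nuclei. Dcn alone was found in 87.6% of members, whereas 220 of the 258 had no UMI of Pdgfra, the receptor that defines fibroblasts. The 6 cardiomyocyte markers summed to 1243 and 1245 CPM in the WT-CD libraries, 1803 and 1730 in the R403Q-CD libraries, and 1897 and 1646 with EMPA, against 964 to 1709 in fibroblast and 48241 to 60684 in cardiomyocyte nuclei. Its sum was lowest in both WT-CD libraries, though 3 of its genes (Ttn, Ryr2 and Myh6) are limited by the selection. The myeloid list summed to 254 and 67.4 CPM in the WT-CD libraries, 1701 and 301 in the R403Q-CD libraries, and 305 and 93.8 with EMPA. In R403Q-CD replicate 1, F13a1 had 117 UMIs, of which 49 came from 1 nucleus. The endocardial list summed to 695 to 1222 CPM and came almost wholly from Npr3 and Hmcn1, with 10 UMIs of Cytl1 and 2 of Plvap in all members. The endothelial list summed to 201 to 413 CPM, highest in WT-CD replicate 2. It came mostly from Kdr (292 UMIs in all members), while Pecam1 (13) and Cdh5 (3) are limited by the selection. The lymphatic list summed to 15.0 to 175 CPM and the Schwann list to 0 to 67.4. The pericyte list was highest in both R403Q-EMPA libraries, at 186 and 93.8 CPM from 31 and 9 UMIs, against 35.1 to 86.9 in the other 4. A different gene led in each, with 22 UMIs of Abcc9 in replicate 1 and 8 of Pdgfrb in replicate 2. Rgs5, of the same list, is limited by the selection. The smooth muscle list was lowest in the R403Q-EMPA libraries, at 12.0 and 10.4 CPM from 2 and 1 UMIs, against 26.3 to 55.1. Of the lymphoid, adipocyte and smooth muscle lists, 3, 4 and 1 of 5 genes were at 0. Whether these RNAs came from the members or from other cells was not tested.

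The share of members per library was compared next, since a change in the epicardial layer between genotypes or with treatment could appear there. How much of the heart surface each piece of tissue held is not given. WT-CD libraries held 78 and 44 members, R403Q-CD libraries 31 and 37, and R403Q-EMPA libraries 40 and 28. They made up 0.767% (95% Wilson interval 0.615% to 0.956%) and 0.548% (0.409% to 0.735%) of nuclei in the WT-CD libraries, 0.390% (0.275% to 0.554%) and 0.507% (0.368% to 0.697%) in the R403Q-CD libraries, and 0.485% (0.357% to 0.660%) and 0.415% (0.287% to 0.599%) in R403Q-EMPA. Intervals cover counting error only. WT-CD replicate 1 was highest, and both WT-CD libraries were above the other 4.

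WT-CD had a mean share of 0.658% ± 0.155 (SD, n = 2), R403Q-CD one of 0.448% ± 0.0820 and R403Q-EMPA one of 0.450% ± 0.04999. The difference from WT-CD was -0.209 points in R403Q-CD and -0.208 points in R403Q-EMPA, each with p = 0.333 by a two-sided exact permutation test, which is the smallest p that 2 against 2 libraries allow. R403Q-EMPA and R403Q-CD differed by 0.00142 points (exact permutation p = 1). When members were set against nuclei within the vascular and cardiomyocyte limits alone, R403Q-EMPA and WT-CD had 1.34% and 1.37% (exact permutation p = 1), and R403Q-CD had 1.11% (exact permutation p = 0.667 against WT-CD). By library these shares were 1.48% and 1.26% for WT-CD, 0.886% and 1.34% for R403Q-CD, and 1.63% and 1.046% for R403Q-EMPA, so that the groups overlapped. Without WT-CD replicate 1, the differences in share of all nuclei kept were -0.0997 points for R403Q-CD and -0.0982 for R403Q-EMPA.

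**Figure D3:**
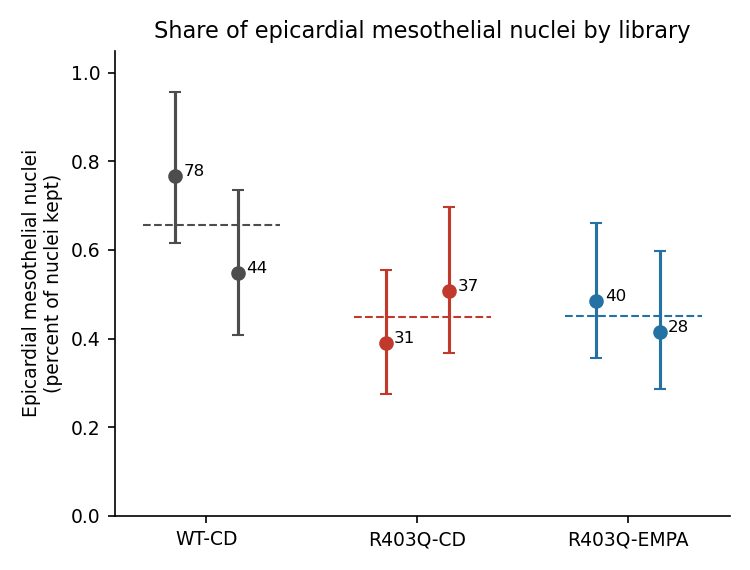
Epicardial mesothelial nuclei as a percent of nuclei kept (y axis) by group (x axis). Points are libraries with 95% Wilson intervals, the number beside a point is its members, and dashed lines are group means. WT-CD sits at 0.767% and 0.548%, above the other 4 libraries, which run from 0.390% to 0.507%.

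Expression in the members was then compared between groups, on UMI counts summed per library. After the filter on low counts, 4625 genes were tested with edgeR's quasi-likelihood test, with p-values adjusted by Benjamini-Hochberg over all of them. From here on, CPM are per 1000000 UMIs of the tested genes after TMM scaling, and 3 pairs of values without group names stand for WT-CD, then R403Q-CD, then R403Q-EMPA. At an adjusted p under 0.05, R403Q-CD against WT-CD gave 0 called genes (0% of those tested), R403Q-EMPA against R403Q-CD gave 0 (0%), and R403Q-EMPA against WT-CD gave 1 (0.0216%). At an unadjusted p under 0.05, 110 genes were higher (2.38%) and 110 lower (2.38%) in R403Q-CD than in WT-CD. In R403Q-EMPA against R403Q-CD, 169 were higher (3.65%) and 183 lower (3.96%), and in R403Q-EMPA against WT-CD, 182 were higher (3.94%) and 181 lower (3.91%). DESeq2 called 0, 0 and 2 genes in the same order. A gene passed the filter if 2 libraries reached its minimum, and 116 of the 4625 did so through WT-CD alone, 337 through R403Q-CD alone and 474 through R403Q-EMPA alone. Such genes had to lie high in that group, so counts and medians over lists are given as descriptions. In counts simulated at these depths, the test called 71.8%, 70.0% and 82.3% of genes changed by 2 on the log2 scale. It called 20.4%, 11.1% and 25.9% of those changed by 1. These shares cover only changed genes that passed the filter. The simulation gave genes of like level the same spread and did not model UMIs concentrated in 1 nucleus, so the shares may be too high here.

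The gene called in R403Q-EMPA against WT-CD was Diaph3 (ENSMUSG00000022021), a formin that builds actin filaments and takes part in cell division. It had 20.4 and 31.9 CPM in the WT-CD libraries, 66.9 and 23.6 in the R403Q-CD libraries, and 405 and 184 with EMPA. Both R403Q-EMPA libraries were above the other 4. The log2 fold change was 3.57 ± 0.51 (SE) against WT-CD (edgeR adjusted p = 0.0195) and 2.84 ± 0.52 against R403Q-CD (adjusted p = 0.0955). Diaph3 passed the low-count filter through R403Q-EMPA alone, and so was bound to lie high there. Of the 58 Diaph3 UMIs in R403Q-EMPA replicate 1, however, 49 came from 1 nucleus. That nucleus held 17061 UMIs, 5344 genes, 90 marker UMIs, 34 UMIs of Top2a and 8 of Mki67, the latter genes of dividing cells, and it was not a predicted doublet. Without it the log2 fold change against WT-CD was 2.21 and the adjusted p 0.434, and 0 genes were called. Against R403Q-CD it was then 1.47. The call was also lost without WT-CD replicate 1 (adjusted p = 0.0920), without R403Q-EMPA replicate 1 (0.274) and with at most 10 UMIs counted per gene and nucleus (0.105). Apart from it, 8 nuclei of R403Q-EMPA replicate 1 and 9 of replicate 2 held a Diaph3 UMI, against 6 and 4 WT-CD nuclei and 1 and 3 R403Q-CD nuclei. A UMI of Mki67 or Top2a was seen in 2 of 258 members, which at this depth sets no limit on the share of dividing nuclei.

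**Figure D4:**
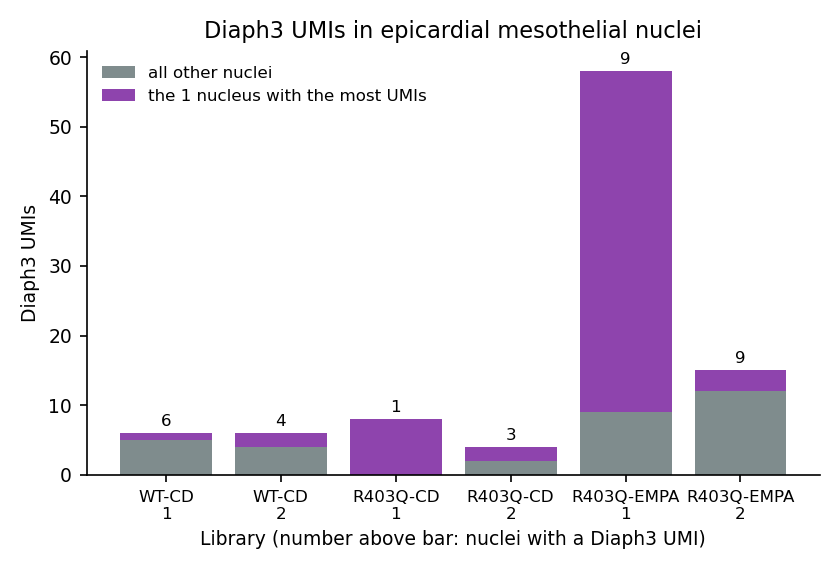
Diaph3 UMIs (y axis) in the members of each library (x axis), split into the nucleus with the most UMIs and all other nuclei. Numbers above the bars count nuclei with a Diaph3 UMI. In R403Q-EMPA replicate 1, 49 of 58 UMIs came from 1 nucleus.

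Genes of the endoplasmic reticulum (ER) that fold secreted and membrane proteins stood among the smallest p-values of both R403Q-EMPA comparisons. Dnajc3 (ENSMUSG00000022136), a co-chaperone of the ER, had 167 and 138 CPM in the WT-CD libraries, 109 and 112 in the R403Q-CD libraries, and 405 and 553 with EMPA. Both R403Q-EMPA libraries were above all others, and the UMIs were spread over 26 and 14 nuclei with at most 10 and 9 in any. The log2 fold change was 2.08 ± 0.33 against R403Q-CD (adjusted p = 0.0617) and 1.61 ± 0.29 against WT-CD (adjusted p = 0.0504), so neither passed the threshold. Over 15 alternatives it was 1.85 to 2.29 and 1.36 to 1.94.

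Pdia3 (ENSMUSG00000027248), a protein disulfide isomerase, had 140 and 101 CPM in the WT-CD libraries, 251 and 171 in the R403Q-CD libraries, and 391 and 725 with EMPA. Its log2 fold change was 2.14 ± 0.35 against WT-CD (adjusted p = 0.0504), which did not pass in edgeR but was called by DESeq2. Over 15 alternatives it was 1.64 to 2.51. Against R403Q-CD it was 1.38 ± 0.35 (adjusted p = 0.239), and 0.89 without R403Q-EMPA replicate 2. Hsp90b1, the ER form of HSP90, had 184 and 244, 184 and 213, and 489 and 639 CPM. It differed by 1.48 ± 0.30 from R403Q-CD (adjusted p = 0.158) and by 1.39 ± 0.29 from WT-CD (adjusted p = 0.120). In all 3 genes, named for small p-values, both R403Q-EMPA libraries were above the other 4. How many of all tested genes separate in this way was not counted.

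A list of 23 ER chaperone and stress genes, drawn up after these values were seen and so given no test, had 15 members among the genes tested. Their median log2 fold change was 1.38 in R403Q-EMPA against R403Q-CD and 1.54 against WT-CD, with 14 of 15 above 0 and 10 higher at an unadjusted p under 0.05 in each, and -0.11 in R403Q-CD against WT-CD. The median over all genes tested was 0.01, 0.01 and 0.00. Of the 15, 5 (Manf, Pdia6, Herpud1, Hyou1 and Edem1) passed the low-count filter through R403Q-EMPA alone and so were bound to lie high there. Over the other 10, the medians were 1.11 and 0.94, with 9 of 10 above 0 in each and 6 and 5 higher at an unadjusted p under 0.05. Hspa5, the main ER chaperone, had 249 and 101 CPM in the WT-CD libraries, 159 and 165 in the R403Q-CD libraries, and 412 and 676 with EMPA, with a log2 fold change of 1.70 ± 0.40 against R403Q-CD (adjusted p = 0.208). Manf, a secreted ER stress protein, had 47.7 and 31.9, 16.7 and 17.7, and 119 and 147 CPM (2.87 ± 0.67 against R403Q-CD, adjusted p = 0.208). Pdia6 had 30.7 and 37.2, 33.5 and 47.2, and 147 and 160 CPM (1.86 ± 0.50, adjusted p = 0.294). Without either R403Q-EMPA library the list's median was 1.65 or 1.18 against R403Q-CD. In the same comparison, the 10 genes that did not enter through R403Q-EMPA alone had medians of 1.11 in members, 0.97 in fibroblast, 0.61 in endothelial and 0.48 in cardiomyocyte nuclei, and a difference between classes was not tested.

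Promoters are shown because ER chaperone genes are known for a shared control element. Sequences were taken from RefSeq on build GRCm38.p6, from 250 bases before to 50 bases after the transcription start, written in the direction of the gene, and 21 of the 23 genes matched. The ER stress element, bound by ATF6 with NF-Y, was searched on both strands as CCAAT, any 9 bases, then CCACG. It was present in 39 of 32851 promoters, or 0.119%, and in those of 8 of the 21 genes (Calr, Canx, Creld2, Dnajc3, Hsp90b1, Hspa5, Pdia6 and Syvn1). Capitals mark the matches, of which Hsp90b1 has 2, the nearer to its start on the other strand.
Dnajc3, chr14:118937682-118937981, + strand: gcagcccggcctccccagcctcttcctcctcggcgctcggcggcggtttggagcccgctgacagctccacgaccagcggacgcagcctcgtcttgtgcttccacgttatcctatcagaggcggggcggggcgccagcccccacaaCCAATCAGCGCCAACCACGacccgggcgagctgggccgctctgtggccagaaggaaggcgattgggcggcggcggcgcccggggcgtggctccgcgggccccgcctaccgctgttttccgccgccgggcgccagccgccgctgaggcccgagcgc
Hspa5, chr2:34771840-34772139, + strand: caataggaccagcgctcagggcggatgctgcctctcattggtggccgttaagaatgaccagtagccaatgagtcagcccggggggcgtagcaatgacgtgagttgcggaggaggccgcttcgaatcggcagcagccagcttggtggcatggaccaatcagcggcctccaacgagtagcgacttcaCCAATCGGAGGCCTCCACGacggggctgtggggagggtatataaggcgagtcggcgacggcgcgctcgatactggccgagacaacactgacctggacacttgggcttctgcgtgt
Hsp90b1, chr10:86705395-86705694, - strand: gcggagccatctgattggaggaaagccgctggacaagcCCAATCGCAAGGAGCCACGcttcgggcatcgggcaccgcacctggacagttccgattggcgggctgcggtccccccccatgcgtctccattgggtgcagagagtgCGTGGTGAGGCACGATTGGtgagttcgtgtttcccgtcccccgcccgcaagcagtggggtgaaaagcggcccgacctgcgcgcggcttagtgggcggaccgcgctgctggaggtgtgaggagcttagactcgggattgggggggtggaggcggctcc
Pdia6, chr12:17266339-17266638, + strand: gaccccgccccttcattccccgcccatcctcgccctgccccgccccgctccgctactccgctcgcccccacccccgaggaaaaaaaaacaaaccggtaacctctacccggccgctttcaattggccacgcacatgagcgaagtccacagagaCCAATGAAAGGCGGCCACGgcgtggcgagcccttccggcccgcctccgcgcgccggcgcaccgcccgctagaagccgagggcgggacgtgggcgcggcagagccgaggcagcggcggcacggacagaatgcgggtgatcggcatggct
The matches start 105 bases before the transcription start in Dnajc3, 65 in Hspa5, 212 and 107 in Hsp90b1 and 98 in Pdia6. The window of Pdia3 held no match. A match is a description of the letters and says nothing of binding in these nuclei.

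Cytosolic heat shock chaperones, which fold proteins outside the ER, were read beside them. Of 15 listed genes, 8 were tested and 0 called, and 3 were higher at an unadjusted p under 0.05 in R403Q-EMPA against R403Q-CD (Hspa8, Dnaja1 and Hspb1), with a median log2 fold change of 0.81. The median was 0.50 without R403Q-EMPA replicate 1 and 0.91 without replicate 2. Without Hspa4l, which passed the filter through R403Q-EMPA alone, it was 0.62. Dnaja1 had 181 and 117, 142 and 88.6, and 328 and 184 CPM (1.24 ± 0.41, adjusted p = 0.454, and 0.68 without R403Q-EMPA replicate 1). Hsp90ab1 had 235 and 138, 276 and 230, and 461 and 295 CPM (0.62 ± 0.34, adjusted p = 0.710, and 0.20 without the same library). For the same 7 genes the median was 1.21 in fibroblast, 1.44 in endothelial and 0.78 in cardiomyocyte nuclei. Mitochondrially encoded genes took 2.88% and 3.25% of member UMIs in R403Q-EMPA and 2.17% to 2.46% in the other libraries. The pericyte list was also highest in R403Q-EMPA, largely through a different gene in each library. The part of both in these results was not tested.

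Genes of the circadian clock were among the smallest p-values against WT-CD. Per3 (ENSMUSG00000028957), a repressor of the clock, had 314 and 186 CPM in the WT-CD libraries, 167 and 124 in the R403Q-CD libraries, and 41.9 and 36.9 with EMPA. The log2 fold change against WT-CD was -2.65 ± 0.46 (adjusted p = 0.0504), which did not pass. Over 15 alternatives it was -2.99 to -2.21. Nr1d2 (ENSMUSG00000021775), the nuclear receptor REV-ERB beta, had 211 and 212, 117 and 59.1, and 27.9 and 36.9 CPM (-2.73 ± 0.49 against WT-CD, adjusted p = 0.0504). Nr1d2 passed the low-count filter through WT-CD alone, where it is high, so its test supports nothing. For Per3, R403Q-CD lay between the other groups and no library overlapped with another group. How common this was among all tested genes was not counted. In Nr1d2 the high place of WT-CD was bound by the filter. Against WT-CD, R403Q-CD differed by -0.82 ± 0.35 in Per3 (adjusted p = 0.989) and -1.31 ± 0.38 in Nr1d2 (adjusted p = 0.840). The former was -0.37 without WT-CD replicate 1 and the latter -0.86 without R403Q-CD replicate 2.

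Of the 19 clock genes listed, 12 were tested. In R403Q-EMPA against WT-CD, 6 were lower and 0 higher at an unadjusted p under 0.05, with a median of -0.64. The 6 were Per3, Nr1d2, Dbp, Tef, Hlf and Rora. Of the 12, Nr1d2 and Dbp passed the filter through WT-CD alone and Cry1 through R403Q-EMPA alone, and over the other 9 the median was -0.48 with 4 lower and 0 higher. Tef, a factor that binds D-boxes, had 535 and 388, 176 and 402, and 140 and 160 CPM (-1.65 ± 0.38, adjusted p = 0.178), with 1 R403Q-CD library in the WT-CD range. Its relative Dbp had 119 and 117 CPM in the WT-CD libraries, 33.5 and 0 in the R403Q-CD libraries, and 27.9 and 0 with EMPA, the last group from 4 UMIs in all. Rora and Hlf, the listed clock genes with the highest levels, differed by -0.79 ± 0.24 and -1.13 ± 0.30 (adjusted p = 0.453 and 0.327). With at most 10 UMIs counted per gene and nucleus, the value of Rora was -0.16. For the same 9 genes the median was -0.49 in fibroblast, -0.42 in endothelial and -0.62 in cardiomyocyte nuclei, and a difference between classes was not tested. The hour at which hearts were collected is not given in the sources used here. The D-box, searched on both strands as TTATGTAA, was present in 0.938% of promoters and, among the 15 clock genes matched, in that of Per3 alone, where it occurs 2 times (capitals), 205 and 158 bases before the start.
Per3, chr4:151044616-151044915, - strand: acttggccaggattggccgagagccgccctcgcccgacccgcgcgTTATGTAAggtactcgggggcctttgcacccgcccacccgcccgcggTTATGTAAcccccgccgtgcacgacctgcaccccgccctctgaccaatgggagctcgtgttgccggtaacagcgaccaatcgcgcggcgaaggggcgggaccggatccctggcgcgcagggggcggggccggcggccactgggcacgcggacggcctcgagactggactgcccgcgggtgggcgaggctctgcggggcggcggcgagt

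**Figure D5:**
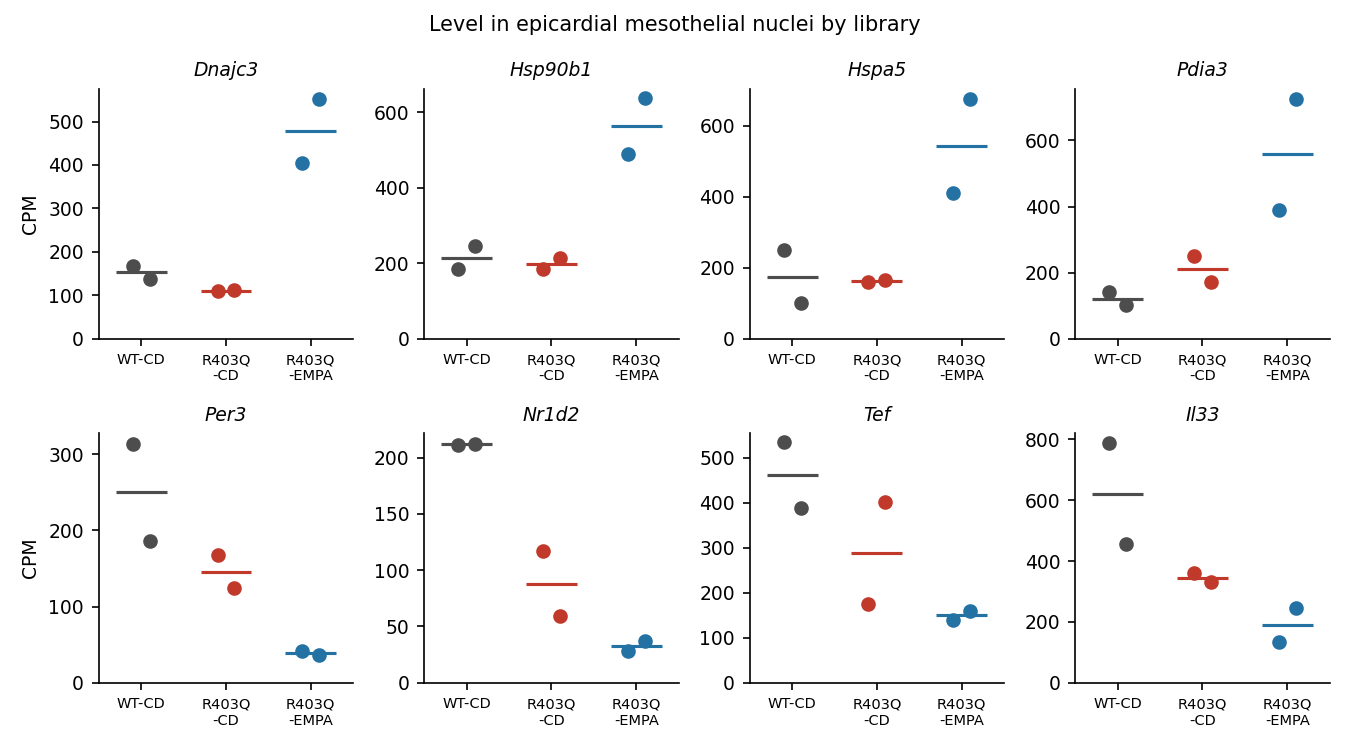
CPM of 8 genes (y axis, from 0) in epicardial mesothelial nuclei by group (x axis), each point a library and each line a group mean. In the top row both R403Q-EMPA libraries lie above all others. In the bottom row both lie below all others, as for Per3 at 41.9 and 36.9 CPM. The 8 genes were chosen for small p-values or after their values were seen. Nr1d2 passed the low-count filter through WT-CD alone.

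The nuclear receptor gene Nr4a3 (ENSMUSG00000028341), a factor induced soon after stimulation, had 27 and 21 UMIs in the WT-CD libraries, 18 and 14 in the R403Q-CD libraries, and 0 in both R403Q-EMPA libraries. They came from 14 and 12 WT-CD nuclei and 5 and 6 R403Q-CD nuclei. Set against a floor of 3 UMIs over the group's 263042, the level in R403Q-EMPA was at least 8.31-fold lower than in R403Q-CD and at least 7.45-fold lower than in WT-CD, for counting error only. The edgeR adjusted p was 0.0955 and 0.0504, so it was not called. Of the 18 UMIs in R403Q-CD replicate 1, 12 came from 1 nucleus. In fibroblast nuclei, the 2 R403Q-EMPA libraries had 144 and 92 UMIs of Nr4a3, so it was present in the same libraries. Of 18 immediate early genes listed, 7 were tested, and in R403Q-EMPA against R403Q-CD 1 was lower (Klf2) and 0 higher at an unadjusted p under 0.05.

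Other genes with small p-values in R403Q-EMPA against R403Q-CD were Cd38, an enzyme that consumes NAD, and Pde3a, a phosphodiesterase. Cd38 had 191 and 117, 209 and 189, and 27.9 and 49.1 CPM (-2.44 ± 0.50, adjusted p = 0.158). Pde3a had 170 and 260, 134 and 112, and 384 and 393 CPM (1.66 ± 0.34, adjusted p = 0.158). Il33, an alarmin cytokine of barrier cells chosen after its values were seen, had 787 and 457, 360 and 331, and 133 and 246 CPM, with a log2 fold change of -1.80 ± 0.36 in R403Q-EMPA against WT-CD (adjusted p = 0.102).

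For R403Q-CD against WT-CD, the question was whether a mutation in a cardiomyocyte gene went with a change in the epicardial layer, and no gene passed. The 6 smallest p-values were those of Pid1, Tmeff2, Ntrk3, Kcnab1, Pde10a and Col8a1. Pid1, an adaptor in insulin signalling, had 140 and 143 CPM in the WT-CD libraries, 703 and 331 in the R403Q-CD libraries, and 112 and 209 with EMPA (1.84 ± 0.37, adjusted p = 0.320). Tmeff2, a transmembrane protein, had 348 and 207, 66.9 and 82.7, and 286 and 209 CPM (-1.89 ± 0.38, adjusted p = 0.320). In both genes, named for small p-values, R403Q-CD did not overlap with the other groups. How common this was among all tested genes was not counted. With at most 10 UMIs counted per gene and nucleus, the log2 fold change of Pid1 was 1.08, and without R403Q-CD replicate 1 it was 1.22. The receptor Ntrk3 differed by 2.23 ± 0.46 (adjusted p = 0.320), the channel subunit Kcnab1 by 1.71 ± 0.39 (0.626), the phosphodiesterase Pde10a by -1.02 ± 0.24 (0.675) and the collagen Col8a1 by 1.61 ± 0.40 (0.716). With that limit of 10 UMIs, Pde10a differed by -0.51 and Col8a1 by 0.90, and in members without Pdgfra UMIs Kcnab1 differed by 1.13. Ntrk3 and Kcnab1 passed the low-count filter through R403Q-CD alone, where both are high, so their tests support nothing. Of the Col8a1 UMIs, 30 of 54 and 24 of 45 in R403Q-CD came from 1 nucleus each.

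Genes that define the epicardium were read in the same fits. Of 12 epicardial genes listed, 9 were tested and 0 called in any comparison, with log2 fold changes from -0.36 to 0.35, -0.52 to 0.18 and -0.58 to 0.52 in the 3 comparisons. Wt1 had 1036 and 1142 CPM in the WT-CD libraries, 937 and 1465 in the R403Q-CD libraries, and 907 and 762 with EMPA (-0.52 ± 0.27 against R403Q-CD, adjusted p = 0.670), and the difference was -0.84 without R403Q-CD replicate 1 and -0.19 without replicate 2. C3 had 1057 and 1078, 1406 and 1287, and 1815 and 1216 CPM (0.52 ± 0.24 in R403Q-EMPA against WT-CD, adjusted p = 0.635). Its difference was 0.14 without R403Q-EMPA replicate 1, 0.27 with at most 10 UMIs per gene and nucleus and 0.30 in members without Pdgfra UMIs. Over the 16 epicardial transcription factors listed, of which 13 were tested, medians were -0.14, 0.22 and 0.03. With a library left out they ran from -0.20 to -0.07, 0.07 to 0.37 and -0.14 to 0.08. Without Osr1, which passed the filter through R403Q-EMPA alone, they were -0.11, 0.19 and 0.03. Sox6 and Bnc2, the highest of these factors, ran from 1919 to 2545 and from 1214 to 1582 CPM. At an unadjusted p under 0.05, Meis1 was lower in R403Q-CD than in WT-CD, and Gata6 was higher in R403Q-EMPA than in both other groups, with Meis2 beside it against WT-CD. Meis1 had 538 and 558, 385 and 301, and 377 and 602 CPM (-0.69 ± 0.28 in R403Q-CD against WT-CD, adjusted p = 0.989), and Gata6 had 187 and 207, 226 and 154, and 293 and 381 CPM (0.83 ± 0.32 between R403Q-EMPA and R403Q-CD, adjusted p = 0.571, and 0.52 without R403Q-CD replicate 2). Among mesothelial surface and secreted genes, Sulf1, a sulfatase, ran from 3046 to 4595 CPM, and Igfbp5, which binds insulin-like growth factors, from 1758 to 4423 CPM (0.68 ± 0.27 in R403Q-EMPA against WT-CD, adjusted p = 0.596). The difference in Igfbp5 was 0.30 without R403Q-EMPA replicate 2, 0.36 without WT-CD replicate 2 and 0.39 with at most 10 UMIs per gene and nucleus. Of the 16 genes of this list tested, 2 were higher and 2 lower at an unadjusted p under 0.05 in R403Q-EMPA against R403Q-CD, with log2 fold changes from -1.47 to 1.56. Without Prr15l, which passed the filter through R403Q-CD alone, 2 were higher and 1 lower. The endocytic receptor Lrp2 had 297 and 207, 75.3 and 130, and 412 and 184 CPM, lowest in both R403Q-CD libraries. Its log2 fold change was -1.26 ± 0.41 in R403Q-CD against WT-CD (adjusted p = 0.840) and 1.56 ± 0.42 in R403Q-EMPA against R403Q-CD (adjusted p = 0.294), the latter 0.77 without R403Q-EMPA replicate 1.

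Collagens and basement membrane genes, which the epicardium lays down beneath itself, had 24 of 30 genes tested and 0 called. In R403Q-EMPA against WT-CD, 10 were higher and 2 lower at an unadjusted p under 0.05, with a median log2 fold change of 0.52, which was 0.28 without the nucleus named above. Fn1, Col6a2 and Col18a1 passed the low-count filter through R403Q-EMPA alone, Col15a1 through WT-CD alone and Lama5 through R403Q-CD alone. Over the other 19 genes, 8 were higher and 2 lower, with a median of 0.40. Col3a1 had 1152 and 1322, 946 and 1199, and 1598 and 4103 CPM (1.19 ± 0.33, adjusted p = 0.383), with 168 of the 334 UMIs of R403Q-EMPA replicate 2 in 1 nucleus. Its log2 fold change was 0.34 without that library, 0.33 with at most 10 UMIs per gene and nucleus and 0.66 in members without Pdgfra UMIs. Col1a1 had 78.4 and 69.0, 50.2 and 177, and 161 and 430 CPM (1.89 ± 0.51, adjusted p = 0.383). In R403Q-EMPA replicate 2, 22 of its 35 UMIs came from 1 nucleus, and without that library the log2 fold change was 1.07. Col4a4 ran from 454 to 736 CPM (-0.03 ± 0.26). Fibronectin (Fn1) had 8 and 0 UMIs in the WT-CD libraries, 3 and 5 in the R403Q-CD libraries, and 12 and 16 with EMPA, of which 8 and 12 came from 1 nucleus each. The fibroblast list was highest in R403Q-EMPA replicate 2 as well, at 3042 CPM, and the pericyte list in both R403Q-EMPA libraries. In the latter list a different gene led in each library. The part of both lists in this result was not tested.

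Lists of epithelial and signalling genes held 0 called genes. For keratins and epithelial adhesion, 14 of 25 were tested. The keratin Krt7 had 88.6 and 63.7, 33.5 and 29.5, and 161 and 61.4 CPM. Its log2 fold change between R403Q-EMPA and R403Q-CD was 1.91 ± 0.59 (adjusted p = 0.399), and 0.93 without R403Q-EMPA replicate 1, and the gene passed the low-count filter through R403Q-EMPA alone. In the Hippo pathway, which controls growth through YAP and TEAD, 10 of 18 were tested and 3 were higher in that comparison at an unadjusted p under 0.05 (Amotl2, Lats2 and Amotl1). Amotl2 had 109 and 95.6, 75.3 and 88.6, and 237 and 246 CPM (1.53 ± 0.37, adjusted p = 0.208), and Lats2 had 337 and 308, 167 and 224, and 391 and 344 CPM (0.90 ± 0.30, adjusted p = 0.469). Of the retinoic acid list, 4 of 18 were tested. The dehydrogenase Aldh1a1 had 337 and 462, 661 and 1004, and 426 and 627 CPM (1.08 ± 0.29 in R403Q-CD against WT-CD, adjusted p = 0.716). Medians for the Wnt list (17 of 28 tested) were 0.00, 0.02 and 0.04, and for TGF-beta and BMP signalling (19 of 27) 0.01, -0.27 and -0.14 in the 3 comparisons. With a library left out, the Wnt medians ran from -0.18 to 0.25, -0.06 to 0.15 and -0.06 to 0.16. Those for TGF-beta and BMP ran from -0.05 to 0.07, -0.29 to -0.16 and -0.34 to -0.13. Over the 14 Wnt genes that did not pass the filter through 1 group alone, medians were -0.06, -0.002 and -0.07.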

How the data were processed

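Single-nucleus RNA sequencing data of 6 left ventricle libraries were used. The authors isolated nuclei from 50 mg of frozen tissue, and deposited, per library, a matrix of UMI counts per gene and barcode without normalization. The submitters' processing notes name Cell Ranger 8.0.1 and GRCm39. Each matrix held 33696 genes. The labels also name a diet length that the ages do not allow, and the treatment time printed is the one the study's methods give for hearts taken for RNA sequencing.

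Members were chosen by the UMI rule in Python 3.11.15, and their counts were summed per library, because nuclei share their library. Low genes were removed with filterByExpr (minimum count 10), scaled by TMM and tested in edgeR 4.0.16 (R 4.3.3) over all 6 libraries, with 3 residual degrees of freedom. Calls needed an adjusted p under 0.05. DESeq2 1.42.0 was an alternative. SE are from the quasi-likelihood F. Shares were compared by exact permutation tests. Predicted doublets (scrublet in scanpy 1.11.5) were kept, 14 of them members, and left out in an alternative. The fit was tested on simulated counts. Fibroblast and endothelial nuclei needed at least 3 UMIs of the genes of their class. Cardiomyocyte nuclei were set by a percentage instead, with at least 3% of their UMIs from Ttn, Ryr2 and Myh6. Fibroblast nuclei held no UMI of the marker genes that chose the members, and endothelial nuclei held none of Dcn and Pdgfra. Shares of these genes in those classes therefore follow from the class rules.

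Named genes were fixed epicardial genes, genes called, the 6 with the smallest p where fewer were called, the 2 highest of each list, and 20 genes by ratio. Members and lists were chosen with earlier results of these data known. Genes named outside this rule (ER genes other than Dnajc3, Pdia3 and Hsp90b1, and Dbp, Tef, Il33, Col1a1, Fn1, Krt7, Amotl2, Il18r1, Unc5c, Gata6, Meis1 and Meis2) were chosen after their values were seen. Beyond leaving out libraries, alternatives were doublets, 3 marker UMIs, no mitochondrial limit, no UMI of Pdgfra, DESeq2, RLE factors, no filter, and, chosen after seeing the data, leaving out the nucleus with the most Diaph3 UMIs and counting at most 10 UMIs per gene and nucleus.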

Additional observations from a re-analysis of the deposited data

How the results depend on the processing

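The count of called genes was small and moved with most settings. For R403Q-CD against WT-CD it was 0, with 1 without predicted doublets (Pid1) and 23 without the filter on low counts. For R403Q-EMPA against R403Q-CD it was 0, with 1 (Dnajc3) without doublets, with at least 3 marker UMIs, or with at most 10 UMIs per gene and nucleus, and 59 without the filter. For R403Q-EMPA against WT-CD it was 1, with 2 by DESeq2, 6 without doublets, 7 with at least 3 marker UMIs, 8 with members without Pdgfra UMIs, 5 with at most 10 UMIs per gene and nucleus, 0 without the nucleus with the most Diaph3 UMIs, and 55 without the filter. Leaving out each library gave 0 to 14, 3 to 49 and 0 to 50 called genes in the 3 comparisons. Without R403Q-CD replicate 1 or 2, R403Q-EMPA against WT-CD had 50 or 47, although neither library is in that comparison. The cause of these shifts was not tested. With a library left out, the lone sample of its group is assumed to vary like the others. The difference in share between R403Q-EMPA and R403Q-CD turned negative with at least 3 marker UMIs (-0.0303 points) and after thinning to 1000 UMIs (-0.0195), and ran from -0.0566 to 0.0594 with a library left out. Mean shares of both R403Q groups were below WT-CD in the settings run, with a difference of -0.0336 points for R403Q-EMPA among nuclei within the vascular and cardiomyocyte limits. Log2 fold changes near 0 were not stable in sign, as in R403Q-CD against WT-CD for Wt1 (-0.23 to 0.43), Gpm6a (-0.28 to 0.55) and Bnc1 (-0.24 to 0.30). Among 73 log2 fold changes followed through the settings, which leave these out and cover those printed with an error (2 of them, of Fn1, could not be had without Pdgfra UMIs or without the Diaph3 nucleus), the sign turned in that of Col4a4 in R403Q-EMPA against WT-CD: 0.0365 with at least 3 marker UMIs, 0.0359 without the mitochondrial limit, 0.14 without Pdgfra UMIs and 0.0371 without the Diaph3 nucleus. It ran from -0.23 to 0.10 with a library left out, the latter without R403Q-EMPA replicate 1. No paired analysis was possible because the labels number the samples 1 to 6 and no number is shared between groups. Depth limits the smallest group most, as a floor of 3 UMIs stood at 31.3 CPM in R403Q-EMPA replicate 2 and 8.75 CPM in WT-CD replicate 1.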

Other observations

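A further 87 nuclei met every part of the rule except the mitochondrial limit. With few nuclei per library, a gene's level can rest on a single nucleus. Among tested genes with at least 10 UMIs in a library, the nucleus with the most UMIs gave a median of 10.0% of them in WT-CD replicate 1 and 18.8% in R403Q-EMPA replicate 2, and at least 50% for 0.310% to 1.80% of the genes. The netrin receptor gene Unc5c had 41 of its 45 UMIs in R403Q-CD replicate 2 in 1 nucleus. Il18r1, a subunit of the interleukin-18 receptor, had 13.6 and 31.9 CPM in the WT-CD libraries, 25.1 and 82.7 in the R403Q-CD libraries, and 216 and 98.3 with EMPA. Its log2 fold change in R403Q-EMPA against WT-CD was 2.93 ± 0.62 (edgeR adjusted p = 0.133), although it passed the low-count filter through R403Q-EMPA alone, with 31 UMIs over 11 nuclei in R403Q-EMPA replicate 1, of which 11 were in 1 nucleus. Kdr, a receptor for VEGF that is best known from endothelium, had 344 and 409 CPM in the WT-CD libraries, 234 and 207 in the R403Q-CD libraries, and 209 and 258 with EMPA members (-0.77 ± 0.28 in R403Q-CD against WT-CD, adjusted p = 0.975).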
